A study of Mus musculus with 20 samples.

Results

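The comparison described here set *fat-1* hearts against wild-type (WT) hearts that were perfused continuously, with no ischemia. It took in 10 of the 20 hearts of the series, 5 Fat1-Con and 5 WT-Con, chosen by their group labels, and 18219 of 31874 genes, those with a mean of at least 0.1 FPKM, fragments scaled to exon length and library depth, over the 20 hearts. Fat1-Con hearts came from mice that carry the *fat-1* transgene, an n-3 fatty acid desaturase of *Caenorhabditis elegans*, and WT-Con hearts from C57BL/6J mice. All mice were 3 months old, and all 10 hearts were kept on the Langendorff apparatus, a retrograde perfusion of the isolated heart, for 120 min before RNA was taken from the ventricles. The other 10 hearts, Fat1-IR and WT-IR, went through global ischemia for 20 min after an equilibration of 40 min, then reperfusion for 1 h. They served here as a second set of hearts for the same contrast of genotypes. They also entered the filter on mean FPKM and, in the fit of all 4 groups, the estimate of the spread. The promoter of the transgene, the sex of the mice and whether both genotypes came from the same litters were not given in the sources used here, and reads of the transgene were not analysed, so the genotype labels were not checked against it.

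Mammals cannot place a double bond at the n-3 position of a fatty acid, and so depend on the diet for n-3 polyunsaturated fatty acids (PUFAs). The *fat-1* enzyme converts n-6 into n-3 fatty acids within the tissue, without a change of diet. In the heart n-3 fatty acids are known as constituents of phospholipids, as precursors of oxylipins and as ligands of nuclear and membrane receptors, and the adult cardiac muscle itself burns mainly fatty acids. The comparison answers which transcripts differ in *fat-1* hearts before any ischemia.

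Each control library held between 15626847 and 22247960 fragments assigned to genes. Correlations between hearts over all genes tested ran from 0.954 to 0.960 within Fat1-Con and from 0.954 to 0.962 among WT-Con 1 to 4, whereas WT-Con 5 reached down to 0.896. WT-Con 5 stood apart, since fragments of the mitochondrial genome made up 15.1% of it. That share averaged 33.8 ± 1.25% in Fat1-Con hearts and 28.8 ± 7.70% in WT-Con hearts (SD, n = 5 each; exact two-sided permutation test over 252 splits, p = 0.0397), and without WT-Con 5 it averaged 32.2 ± 1.09% in WT-Con, a difference of 1.63 percentage points (exact p = 0.0794 over 126 splits). The called genes and the lists are therefore also given without that heart. Summed FPKM of 12 cardiomyocyte markers ran from 19748 to 21077 in Fat1-Con and from 20597 to 39391 in WT-Con, and the highest among WT-Con 1 to 4 was 22040, so the tissue was cardiac muscle in each heart. Summed FPKM of 4 atrial markers ran from 144 to 316 in Fat1-Con and from 45.5 to 368 in WT-Con, although the labels name ventricular tissue, and the part of atrial muscle in the results was not tested. Lung markers summed to at most 0.57 FPKM in Fat1-Con and 1.11 FPKM in WT-Con. *Ddx3y*, a Y-linked gene, averaged 28.1 ± 0.827 FPKM in Fat1-Con and 24.2 ± 3.79 FPKM in WT-Con, and *Xist* of the inactive X averaged 0.00743 FPKM in Fat1-Con and 0.00935 FPKM in WT-Con.

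Few transcripts passed the test. With limma on log2(FPKM + 0.1), thresholds of 0.05 on the Benjamini-Hochberg adjusted p and 1.5 on the fold change, 4 genes were higher in Fat1-Con hearts (0.022% of those tested) and 1 was lower (0.00549%), 5 in all (0.0274%). The coding genes among those higher were *Mboat2* and *Pqlc3*, and the other two were the processed pseudogenes *Gm7993* and *Gm47399*. At an unadjusted p under 0.05, 448 genes were higher (2.46%) and 578 lower (3.17%), 1026 together (5.63%), and without WT-Con 5 the counts were 311 (1.71%), 379 (2.08%) and 690 (3.79%). Genes of a list that are named beyond its first 2 by p were chosen after their values were seen. The values of the 5 control hearts did not overlap in 105 genes that were higher (0.576%) and 138 that were lower (0.757%), 243 in all (1.33%). The fold changes below are on the log2(FPKM + 0.1) scale, which understates the change of low genes. Apart from those 5 genes, every adjusted p in Fat1-Con against WT-Con was 0.0620 or more. The labels name separate hearts but do not say that each came from its own litter or day, so the p-values measure the spread between these hearts.

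*Mboat2*, on chromosome 12 (mm10, chr12:24830879-24964397, plus strand), encodes a lysophospholipid acyltransferase, an enzyme that puts unsaturated acyl chains back onto lysophospholipids during membrane remodelling. It measured 2.14, 2.13, 1.29, 1.96 and 1.31 FPKM in Fat1-Con 1 to 5, against 0.482, 0.626, 0.451, 0.728 and 0.622 FPKM in WT-Con 1 to 5. The lowest Fat1-Con heart lay above the highest WT-Con heart. The means were 1.77 ± 0.432 and 0.582 ± 0.114 FPKM (SD, n = 5 each), a log2 fold change of 1.44 with a 95% confidence interval of 1.04 to 1.83, or 2.71-fold (limma, SE 0.19, adjusted p = 0.00122), and it was 1.46 without WT-Con 5. The values rest on 218 to 388 fragments per Fat1-Con heart and 93 to 154 per WT-Con heart. In a fit of the 10 control hearts alone, with fewer residual degrees of freedom, its adjusted p was 0.0565 in limma. *2900060N12Rik*, named only because it overlaps *Mboat2* on the opposite strand, stood at a log2 difference of 0.78, and since the sources used here do not say whether counting used strand, the fragments of both cannot be told apart.

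*Pqlc3* (chr12:16988648-17000408, minus strand) encodes a membrane protein of the PQ-loop family. Fat1-Con 1 to 5 measured 2.03, 1.91, 1.49, 1.95 and 1.80 FPKM, and WT-Con 1 to 5 measured 0.650, 0.913, 0.956, 0.861 and 0.876 FPKM. The 5 Fat1-Con hearts lay close together and clear of the WT-Con hearts. The log2 fold change was 1.03 (95% confidence interval 0.75 to 1.30; SE 0.13; limma, adjusted p = 0.00108), or 2.04-fold, and 1.04 without WT-Con 5.

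*Pygl* (chr12:70190811-70231488, minus strand), the liver isoform of glycogen phosphorylase, which releases glucose units from glycogen, missed the threshold narrowly. It measured 1.12, 1.32, 1.43, 1.43 and 1.38 FPKM in Fat1-Con hearts, against 0.273, 0.564, 0.515, 0.551 and 0.371 FPKM in WT-Con hearts. The groups did not overlap, and the spread was narrow in both, at 1.34 ± 0.13 FPKM in Fat1-Con and 0.455 ± 0.127 FPKM in WT-Con (SD, n = 5 each). The log2 difference of 1.40 (95% confidence interval 0.88 to 1.93) had an adjusted p of 0.0620 in limma, and that p ran from 0.00853 to 0.262 over 27 alternative settings, of which 7 put it past the threshold. The isoforms that muscle and brain use, looked up for their role, were far more abundant. *Pygm* averaged 266 ± 5.5 FPKM in Fat1-Con and 286 ± 10.5 FPKM in WT-Con (log2 difference −0.11, 95% confidence interval −0.31 to 0.10), and *Pygb* averaged 132 ± 11.2 FPKM in Fat1-Con and 121 ± 12.1 FPKM in WT-Con (0.12, −0.11 to 0.35). Per length of exon, *Pygl* was thus the minor glycogen phosphorylase transcript in each of the 10 hearts. *Gm48747*, an antisense gene near *Pygl* on chromosome 12, measured 0.471, 0.142, 0.431, 0.2498 and 0.468 FPKM in Fat1-Con hearts and was listed at 0 FPKM in each WT-Con heart and each WT-IR heart. These are 2 to 8 fragments per Fat1-Con heart. Fat1-IR hearts ran from 0 to 0.593 FPKM, with Fat1-IR 5 at 0, so the groups overlapped after ischemia-reperfusion.

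**Figure D1:**
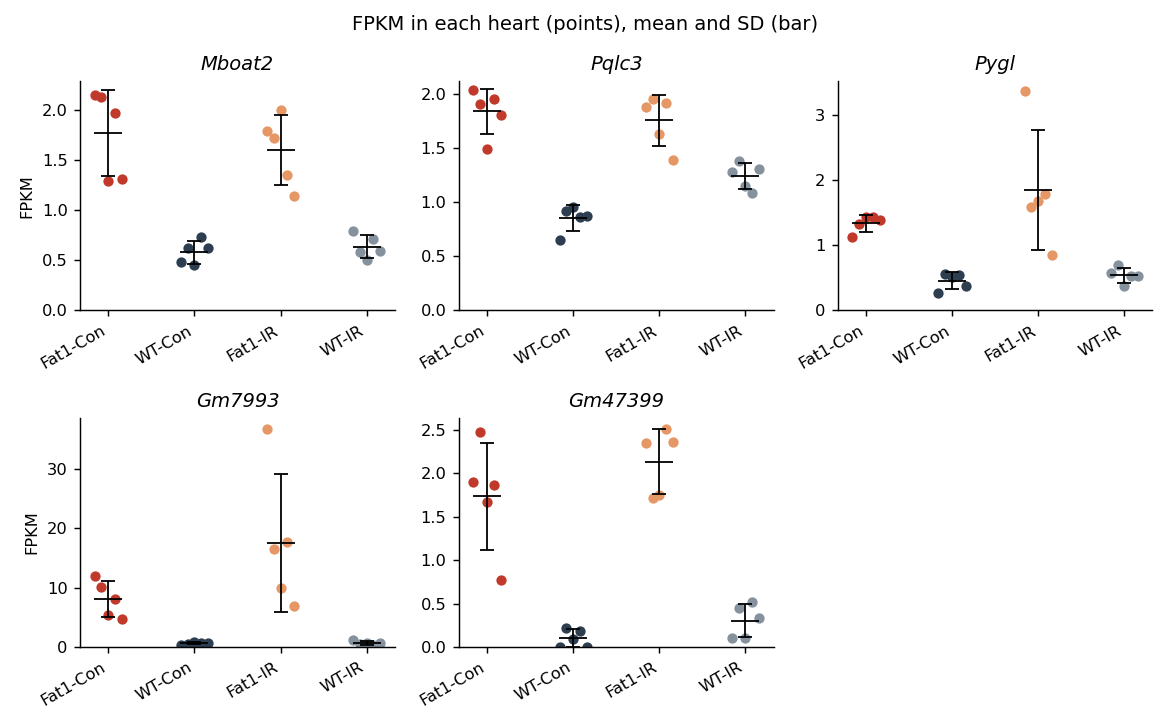
FPKM (linear axes from 0) of *Mboat2*, *Pqlc3*, *Pygl*, *Gm7993* and *Gm47399* in each heart of the 4 groups, 1 point per heart, with horizontal lines at the mean and bars of 1 SD. In Fat1-Con against WT-Con the points of each gene do not overlap, as for *Mboat2* with 1.29 FPKM in the lowest Fat1-Con heart and 0.728 FPKM in the highest WT-Con heart.

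The coding genes *Mboat2* and *Pqlc3*, both called, and *Pygl*, which missed the threshold, lie on chromosome 12 and stood higher in Fat1-Con hearts. Their promoters are printed for that reason. They are the 250 bases upstream of the RefSeq start (RefSeq, GRCm38.p6), read 5′ to 3′ on the strand of the gene, with capitals at the motifs found on either strand. For *Mboat2* the window is chr12:24831349-24831598 (plus strand), for *Pqlc3* chr12:17000119-17000368 (minus strand) and for *Pygl* chr12:70227684-70227933 (minus strand).
Mboat2: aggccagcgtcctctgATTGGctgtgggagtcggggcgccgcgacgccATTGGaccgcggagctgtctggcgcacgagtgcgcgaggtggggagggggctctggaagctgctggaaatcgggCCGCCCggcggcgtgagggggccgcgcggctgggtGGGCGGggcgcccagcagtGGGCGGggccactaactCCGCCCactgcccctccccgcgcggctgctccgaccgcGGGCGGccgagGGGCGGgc
Pqlc3: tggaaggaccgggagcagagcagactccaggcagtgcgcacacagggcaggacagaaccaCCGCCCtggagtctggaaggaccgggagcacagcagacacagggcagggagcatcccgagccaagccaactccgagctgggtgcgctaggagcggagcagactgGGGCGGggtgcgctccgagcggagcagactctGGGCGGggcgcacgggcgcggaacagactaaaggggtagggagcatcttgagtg
Pygl: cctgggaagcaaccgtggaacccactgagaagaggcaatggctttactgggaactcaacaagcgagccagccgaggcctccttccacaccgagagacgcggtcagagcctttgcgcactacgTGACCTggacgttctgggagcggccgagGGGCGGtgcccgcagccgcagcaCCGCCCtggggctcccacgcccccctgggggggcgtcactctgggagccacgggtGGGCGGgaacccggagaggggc

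The motifs searched were the GC box GGGCGG, the CAAT box written CCAAT, the nuclear receptor motif AGGTCA and the E-box CACGTG, none of which overlap in these windows. *Mboat2* held 6 GC boxes and 2 CCAAT motifs, *Pqlc3* held 3 GC boxes, and *Pygl* held 3 GC boxes and 1 AGGTCA. Of the 32851 mouse promoters of this length in the table, 32.7% held a GC box, 33.8% a CCAAT, 14.0% an AGGTCA and 6.02% a CACGTG. The windows were 77.6% G and C in *Mboat2*, 67.2% in *Pqlc3* and 69.2% in *Pygl*, against a median of 52.4%. *Gm7993* and *Gm47399* are named only.

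Among 50 genes of glycolysis, glycogen and fructose use, 1 was higher, *Pygl*, at an unadjusted p under 0.05 (background 2.46%), and 5 were lower (background 3.17%). The counts were the same without WT-Con 5 (backgrounds 1.71% and 2.08%). *Ugp2*, which makes the UDP-glucose used for glycogen, averaged 101 ± 15.5 FPKM in Fat1-Con and 129 ± 8.05 FPKM in WT-Con (log2 difference −0.36, SE 0.10). *Gys1*, the muscle glycogen synthase, and *Ldha*, which reduces pyruvate to lactate, differed by −0.24 and −0.25, and by −0.20 and −0.14 without WT-Con 5. Without that heart *Ldha* was no longer under the threshold, and another gene of the list was. The median of the list was −0.14, and −0.08 without WT-Con 5, beside −0.01 over all genes tested.

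*Gm7993* (chr5:95974240-95975623, plus strand) had the smallest p of all genes. It measured 12.02, 10.2, 5.46, 8.04 and 4.78 FPKM in Fat1-Con hearts, against 0.429, 0.494, 0.844, 0.686 and 0.694 FPKM in WT-Con hearts. The lowest Fat1-Con heart was several times the highest WT-Con heart, although the Fat1-Con hearts also varied widely among themselves. The log2 fold change was 3.44 (95% confidence interval 2.69 to 4.18; SE 0.35; limma, adjusted p = 0.000117), or 10.8-fold, from 134 to 315 fragments per Fat1-Con heart and 12 to 26 per WT-Con heart. *Gm7993* is a processed pseudogene, an intronless copy of a spliced transcript. Its closest coding copy is *Odc1*, the ornithine decarboxylase of polyamine synthesis, on chromosome 12 (chr12:17544794-17551505), with 95.7% identity over 1388 bases in blastn.

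The stretch of 60 bases in which *Gm7993* and *Odc1* differ most is printed, since fragments can be assigned to one or the other only through such differences. The sequences are GENCODE M21 transcripts (GRCm38), for *Odc1* from exon 5 at chr12:17547950-17548009 (plus strand) and for *Gm7993* at chr5:95974517-95974576 (plus strand), with capitals at the 5 bases that differ.
Odc1: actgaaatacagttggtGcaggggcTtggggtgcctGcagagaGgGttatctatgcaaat
Gm7993: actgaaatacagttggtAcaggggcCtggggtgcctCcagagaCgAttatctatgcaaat

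Over the 1383 aligned coding bases, 54 differed or were gapped, on average 1 every 25.6 bases, and the longest identical run was 167 bases. *Odc1*, named for this copy after its values were seen, measured 15.9, 12.3, 11.95, 11.9 and 14.8 FPKM in Fat1-Con hearts, against 18.0, 14.3, 23.9, 17.7 and 19.5 FPKM in WT-Con hearts (log2 difference −0.47, SE 0.22). *Odc1* was thus lower on average in the Fat1-Con group, where *Gm7993* was higher, with overlap between the groups. Heart by heart this did not hold, since Fat1-Con 1 was the highest of its group for both genes. In CPM, the fragments of a gene scaled to all assigned fragments of the heart, *Gm7993* averaged 11.2 ± 4.24 in Fat1-Con and 0.871 ± 0.232 in WT-Con, *Odc1* averaged 45.6 ± 6.29 in Fat1-Con and 63.6 ± 11.9 in WT-Con, and their sum averaged 56.8 ± 8.62 in Fat1-Con and 64.5 ± 12.1 in WT-Con. The difference in the sum was −0.18 on the log2 scale (exact two-sided permutation test over 252 splits, p = 0.278), against an exact p of 0.00794 for *Gm7993* alone, the smallest that 5 hearts against 5 allow. Fragments per gene therefore differed between the genotypes, while a difference in the sum of both genes was not detectable with these control hearts. After ischemia-reperfusion *Gm7993* averaged 24.3 ± 16.1 CPM in Fat1-IR and 0.991 ± 0.401 CPM in WT-IR. *Odc1* averaged 84.0 ± 31.9 CPM in Fat1-IR and 89.4 ± 28.3 CPM in WT-IR (log2 difference −0.10). Their sum averaged 108 ± 47.7 CPM in Fat1-IR and 90.4 ± 28.6 CPM in WT-IR (0.23, exact permutation p = 0.508).

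**Figure D2:**
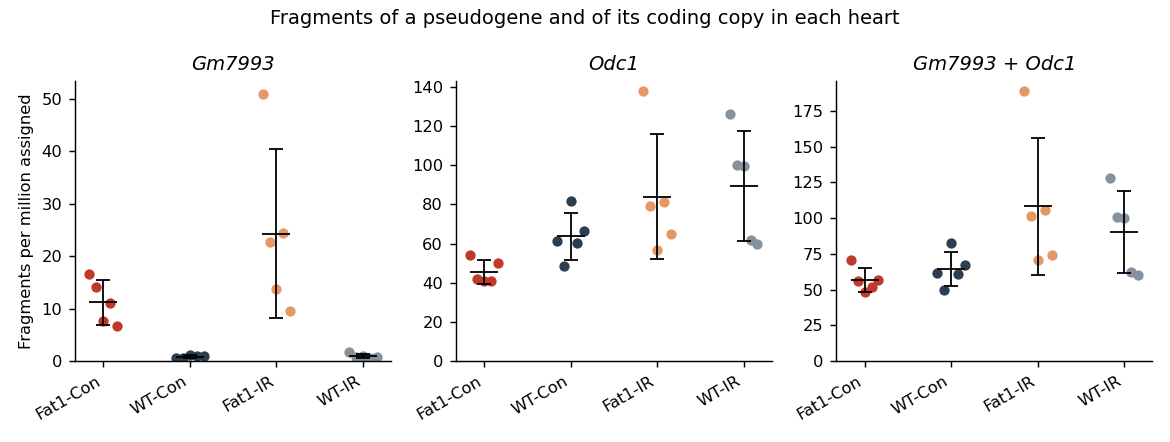
CPM (fragments scaled to all those assigned) of *Gm7993*, of its coding copy *Odc1* and of their sum (linear axes from 0), 1 point per heart in Fat1-Con, WT-Con, Fat1-IR and WT-IR, with the mean and bars of 1 SD. *Gm7993* separates the genotypes at 11.2 in Fat1-Con and 0.871 in WT-Con, whereas the sums, at 56.8 and 64.5, overlap. In Fat1-IR and WT-IR the sums stand at 108 and 90.4 and also overlap.

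*Gm47399* (chr12:51995036-51995509, plus strand), a processed pseudogene closest to the ribosomal protein gene *Rpl29* (91.3% identity over 460 bases), measured 1.89, 2.47, 1.67, 1.86 and 0.775 FPKM in Fat1-Con hearts, against 0, 0.222, 0.0948, 0.191 and 0 FPKM in WT-Con hearts. These are 8 to 21 fragments per Fat1-Con heart and 0 to 2 per WT-Con heart. It lies opposite *Dtd2* (log2 difference 0.48), and the strand caveat given for *Mboat2* holds for it too. The log2 fold change of 3.28 (SE 0.38; limma, adjusted p = 0.000395) depended on the pseudocount, with 4.90 at 0.01 and 1.28 at 1. Summed with *Rpl29* the fragments differed by −0.42 (exact permutation p = 0.643), and by 0.03 without WT-Con 5 (exact p = 0.730). *Gm47399* averaged 0.822 CPM in Fat1-Con and 0.0481 CPM in WT-Con, against 40.0 and 69.9 CPM for *Rpl29*. The sum thus follows *Rpl29* and cannot show a difference in *Gm47399*. Other pseudogenes were among the genes with the smallest p. *Gm1866*, 99.2% identical to *Acp1* over 477 bases, measured 1.33, 1.75, 1.18, 0.925 and 1.64 FPKM in Fat1-Con hearts and 0.208, 0, 0, 0.758 and 0.402 FPKM in WT-Con hearts (2.43; limma, adjusted p = 0.393). *Ube2n-ps1*, identical to *Ube2n* over 459 bases, measured 3.81 to 5.66 FPKM in Fat1-Con hearts and 1.95 to 3.74 FPKM in WT-Con hearts (0.80, adjusted p = 0.153 in limma). Of the closest coding copies looked up, *Odc1*, *Acp1*, *Taf1b* and *Zc3h14* lie on chromosome 12, and the levels of near-identical copies are uncertain where counting could split them.

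The remaining genes of smallest p without overlap between the groups missed the adjusted threshold, and most were low. Of the coding ones, *Cbr3*, a carbonyl reductase, measured 0.126 to 0.439 FPKM in Fat1-Con hearts and 0.461 to 1.17 FPKM in WT-Con hearts (log2 difference −1.13), and *Rab4a*, a GTPase of endosome recycling, 1.06 to 1.26 FPKM in Fat1-Con hearts and 1.47 to 2.10 FPKM in WT-Con hearts (−0.56). *Serinc2*, a membrane protein, differed by −1.08, and *Cdh22*, a cadherin, by −1.08 in control and −1.11 in ischemia-reperfusion hearts. Among transcripts without a known protein, *Gm44220* (0.76), *Ube4bos3* (0.88) and *Gm18726* (1.28) were higher and *4930513N20Rik* (−1.15) was lower. After ischemia-reperfusion these 4 transcripts stood at −0.14, 0.03, 0.03 and 0.77. *Gm44040* was listed at 0 FPKM in each Fat1-Con heart and at 0.165 to 0.352 FPKM, or 2 to 4 fragments, in WT-Con hearts. Its groups overlapped after ischemia-reperfusion, with a log2 difference of −0.02.

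The hearts after ischemia-reperfusion gave the same contrast in other animals. Their values set no control fold change, but they shared the model's estimate of the spread. There, 19 genes passed the same thresholds (0.104%), 1240 had an unadjusted p under 0.05 (6.81%) and 289 did not overlap between Fat1-IR and WT-IR (1.59%). Each of the 5 genes called in the control hearts had the same sign. *Mboat2* averaged 1.60 ± 0.348 FPKM in Fat1-IR and 0.637 ± 0.114 FPKM in WT-IR (log2 fold change 1.19; limma, adjusted p = 0.00971). *Gm7993* averaged 17.5 ± 11.6 FPKM in Fat1-IR and 0.716 ± 0.29 FPKM in WT-IR (4.26). *Pygl* averaged 1.85 ± 0.921 FPKM in Fat1-IR and 0.542 ± 0.115 FPKM in WT-IR and passed the threshold in these hearts (log2 fold change 1.4997, adjusted p = 0.0176). *Pqlc3* was the 1 of the 5 that missed the threshold there, with 1.75 ± 0.239 FPKM in Fat1-IR and 1.24 ± 0.12 FPKM in WT-IR (0.46, adjusted p = 0.273 in limma), a smaller value than in the control hearts, with an adjusted interaction p of 0.831.

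Of the 1026 genes at an unadjusted p under 0.05 in the control hearts, 117 were also under it after ischemia-reperfusion, 89 with the same sign and 28 with the opposite one. The 89 genes, 30 higher and 59 lower, make up 8.67% of the control list and 7.18% of the ischemia-reperfusion list. In 12 genes the genotypes did not overlap in either contrast and moved the same way, and in 1, *Prss46*, they did so in opposite ways (log2 difference −1.45 in control hearts and 1.45 in ischemia-reperfusion hearts). Beside *Mboat2*, *Pqlc3*, *Pygl*, *Gm7993* and *Gm47399*, the 12 included *Sod3*, *Colec11*, *Zfp125*, *Arl4a*, *Gm19196* and *Gm5559*, of which *Colec11*, *Arl4a* and *Gm5559* were singled out after their values were seen. *Sod3* (chr5:52363791-52371418), the superoxide dismutase secreted into the extracellular matrix, measured 3.72, 4.36, 4.73, 4.60 and 5.02 FPKM in Fat1-Con hearts, against 5.78, 6.62, 5.34, 7.05 and 7.19 FPKM in WT-Con hearts. The groups did not overlap, with a log2 difference of −0.50 (SE 0.11; limma, adjusted p = 0.262) in control hearts and −0.45 in ischemia-reperfusion hearts. The cytosolic *Sod1* and the mitochondrial *Sod2*, looked up for their role, differed by −0.43 and −0.12 in control hearts, and by −0.06 and −0.07 without WT-Con 5, so that the *Sod1* value rests on that heart.

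*Colec11* (chr12:28594173-28623377), a collectin of the lectin pathway of complement, measured 3.75, 1.58, 4.21, 2.06 and 3.37 FPKM in Fat1-Con hearts and 4.67, 5.84, 6.24, 8.25 and 10.03 FPKM in WT-Con hearts (−1.24, SE 0.38), and its log2 difference was −2.04 after ischemia-reperfusion. *Zfp125*, annotated as a transcribed pseudogene of the zinc finger family, measured 0.051, 0, 0.0908, 0 and 0.236 FPKM in Fat1-Con hearts and 0.462, 0.423, 0.333, 0.436 and 0.247 FPKM in WT-Con hearts. Both genes were lower in every Fat1-Con heart than in any WT-Con heart. *Arl4a* (chr12:40005447-40038025), a small GTPase of the Arf family, differed by −1.78 in control hearts (SE 0.76) and by −3.84 after ischemia-reperfusion. It measured 1.69, 1.59, 1.47, 0 and 1.82 FPKM in Fat1-Con hearts, against 3.76, 2.80, 3.18, 2.54 and 4.35 FPKM in WT-Con hearts. Fat1-Con 4, at 0 FPKM, weighs heavily on the log2 difference. In Fat1-IR hearts the median was 0.00633 FPKM and the highest value 1.67 FPKM, against 1.92 to 3.10 FPKM in WT-IR hearts. *Gm19196*, a transcribed pseudogene closest to *Taf1b*, measured 0.375, 0.396, 1.30, 0.348 and 1.30 FPKM in Fat1-Con hearts and 2.20, 1.96, 2.07, 3.37 and 5.67 FPKM in WT-Con hearts, at −1.99 (SE 0.47).

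The difference between the contrasts was tested in the same model. At an adjusted p under 0.05 in limma, 1 gene, *Nle1*, had an interaction of genotype and ischemia-reperfusion (0.00549%), and 968 did at an unadjusted p under 0.05 (5.31%). *Aplnr*, the apelin receptor, which the study followed, measured 2.60, 2.26, 1.82, 0.437 and 1.998 FPKM in Fat1-Con hearts, against 0.884, 1.35, 1.13, 0.904 and 1.97 FPKM in WT-Con hearts. The groups overlapped widely, with Fat1-Con 4 the lowest of all 10 hearts. Its log2 difference in control hearts was 0.38 (95% confidence interval −0.44 to 1.20; limma, adjusted p = 0.792), and it was −1.24 after ischemia-reperfusion (adjusted p = 0.384), with an adjusted interaction p of 0.831. *Apln*, its ligand, looked up for its role, differed by 0.16 (−0.31 to 0.63) in control hearts.

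**Figure D3:**
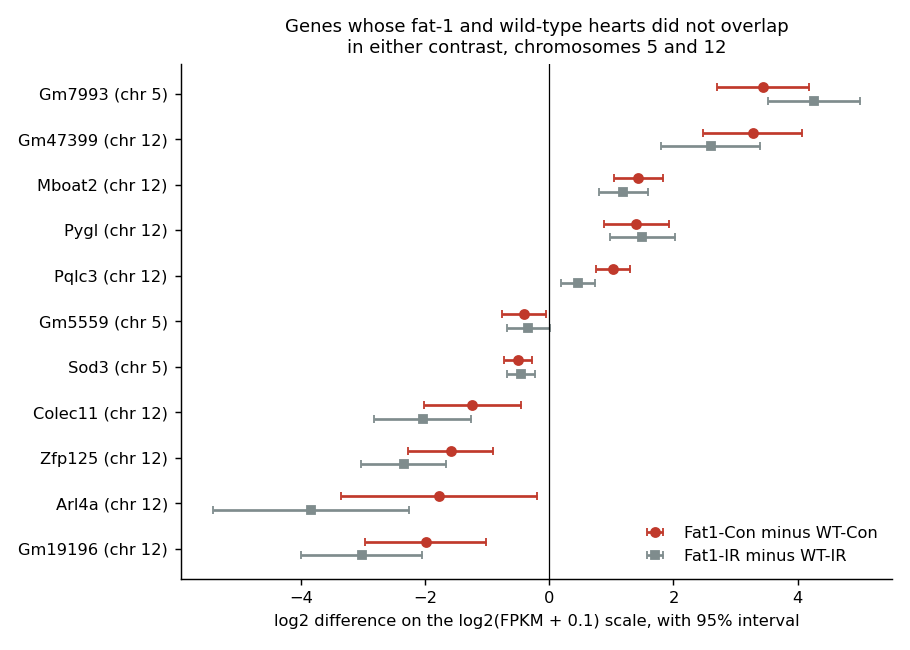
Log2 difference on the log2(FPKM + 0.1) scale (horizontal axis, bars of the 95% interval) of the genes on chromosomes 5 and 12 whose genotypes did not overlap and moved the same way in both contrasts, with Fat1-Con minus WT-Con as circles and Fat1-IR minus WT-IR as squares. *Gm7993* lies at 3.44 and 4.26, and *Sod3* at −0.50 and −0.45.

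Of those 12 genes, 8 lie on chromosome 12 and 3 on chromosome 5, which hold 679 and 1159 of the 18219 genes tested. Chromosome 5 was close to all genes in the control hearts. There 6.47% were at an unadjusted p under 0.05 and 1.47% did not overlap, beside 5.63% and 1.33% of all. Among the 679 genes tested on chromosome 12, 35 were higher and 30 lower in Fat1-Con at an unadjusted p under 0.05, which is 9.57% against 5.63% of all genes tested and 4.06% to 7.11% on each other chromosome. Without WT-Con 5 the share on chromosome 12 was 6.92% against 3.79% of all genes. Among protein-coding genes, with all 10 hearts, it was 8.89% against 5.13%. Groups that did not overlap made up 3.09% of the genes on chromosome 12 against 1.33% of all. On chromosome 12, 20 genes (2.95%) were at an unadjusted p under 0.05 with the same sign in both contrasts, against 89 (0.489%) of all genes tested and at most 0.874% on any other chromosome. These shares are descriptions, since neighbouring genes are not independent.

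Along chromosome 12 the share was highest in the window from 20 to 30 Mb. There 12 of 47 genes (25.5%) were at an unadjusted p under 0.05 in control hearts. Of the 47, 10 (21.3%) were under it in both contrasts with the same sign, and 0 with opposite signs. The share in control hearts was 13.3% from 10 to 20 Mb and 9 of 75 genes from 70 to 80 Mb, around *Pygl*, and 0 of 22 genes from 90 to 100 Mb. Genes on both sides of *Mboat2* moved in both directions. *Klf11*, a transcription factor, differed by 0.40 in control and 0.40 in ischemia-reperfusion hearts, *Id2*, an inhibitor of helix-loop-helix factors, by 0.43 and 0.55, *Ywhaq*, a 14-3-3 protein, by −0.34 and −0.45, and *Acp1*, a phosphatase, by −0.52 and −0.49. These 4 genes were chosen after their values were seen. *Taf1b*, in the same window, differed by 0.03 in control hearts. The site of the transgene and the strain background of the *fat-1* line around chromosome 12 were not given in the sources used here, and their part in these shares was not tested. *Nnt*, whose deletion separates C57BL/6J from other substrains, differed by −0.27 (limma, adjusted p = 0.803), and by −0.16 without WT-Con 5.

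**Figure D4:**
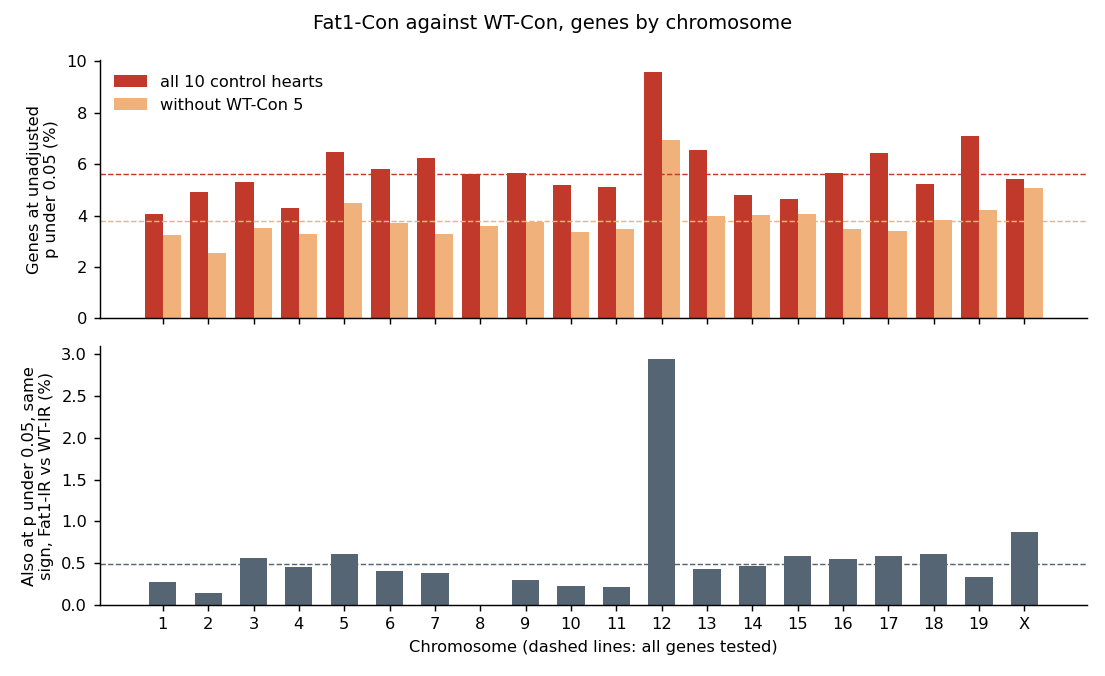
Percent of the genes tested with an unadjusted p under 0.05 in Fat1-Con against WT-Con, per chromosome with all 10 hearts and without WT-Con 5 (upper panel), and percent also under it with the same sign in Fat1-IR against WT-IR (lower panel), with dashed lines at all genes tested. Chromosome 12 stands at 9.57% and 6.92% beside 5.63% and 3.79% of all genes, and at 2.95% beside 0.489% in the lower panel.

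Few genes of PUFA handling passed even the unadjusted threshold, under which 2.46% of all genes tested were higher and 3.17% lower. Of 21 desaturases, elongases and acyl-CoA synthetases tested, none was higher and 1 was lower at an unadjusted p under 0.05, *Tecr*, the last reductase of the elongation cycle (−0.24), and without WT-Con 5 none was. *Fads1* and *Fads2*, the mammalian desaturases of PUFA synthesis, differed by 0.03 (95% confidence interval −0.24 to 0.30) and 0.26 (−0.18 to 0.69), *Elovl5*, an elongase, by 0.10 (−0.13 to 0.32), and *Scd1*, the stearoyl-CoA desaturase, by −0.07 (−1.24 to 1.11). Without WT-Con 5 *Fads2* differed by 0.13 and *Elovl5* by 0.04. These 4 were looked up for their role. Of 28 lysophospholipid acyltransferases and phospholipases A2, *Mboat2* rose, and at an unadjusted p under 0.05 *Lclat1*, which remodels cardiolipin, was higher (0.34, SE 0.12) and *Agpat2*, which makes phosphatidic acid, was lower (−0.39). Without WT-Con 5 *Agpat2* differed by −0.22 and was no longer under the threshold, so that none of the list was lower. *Lclat1* averaged 26.8 ± 2.85 FPKM in Fat1-Con and 21.2 ± 2.92 FPKM in WT-Con. The relatives of *Mboat2*, looked up for their role, differed by 0.54 in *Mboat1* (−0.11 to 1.18), by 0.05 in *Mboat7* (−0.22 to 0.32) and by 0.20 in *Lpcat3* (−0.05 to 0.45). Without WT-Con 5 *Mboat1* differed by 0.19 and *Lpcat3* by 0.11. The median of the list was −0.08, and 0.01 when fragments of the mitochondrial genome were left out of the scaling.

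The same was true of receptors and transcription factors that respond to fatty acids. Of 18 fatty acid and oxylipin receptors, 1 was lower at an unadjusted p under 0.05, *Trpv4*, a cation channel opened by epoxides of arachidonic acid (−0.49, SE 0.17). Of 31 genes of sterol and fatty acid synthesis under SREBP control, none was under it, and *Srebf1* itself differed by 0.04 (−0.26 to 0.34). Of 42 targets of PPARα and genes of fatty acid oxidation, 2 were higher, *Cpt1b* and *Cpt1a*, and 1 was lower, *Eci1*. Without WT-Con 5 none of these was under the threshold, and 1 other gene was, higher. *Cpt1b*, the muscle carnitine palmitoyltransferase, differed by 0.82, and by 0.29 without WT-Con 5, which measured 0.247 FPKM. *Cpt1a*, the liver isoform, differed by 0.48, and by 0.24 without WT-Con 5. *Eci1*, an enoyl-CoA isomerase, differed by −0.35, and by −0.13 without WT-Con 5. *Ppara* itself differed by 0.41 (−0.25 to 1.07), and by 0.06 without that heart.

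Of 25 eicosanoid and epoxide enzymes, none was higher and 5 were lower at an unadjusted p under 0.05 (background 3.17%), and without WT-Con 5 these were 1 and 5. *Ptgds*, prostaglandin D synthase, measured 42.7, 37.1, 30.1, 57.3 and 74.1 FPKM in Fat1-Con hearts, against 67.4, 102, 60.6, 97.4 and 272 FPKM in WT-Con hearts. WT-Con 5 lay far above the others, and Fat1-Con 5 overlapped the WT-Con range. The log2 difference was −1.15 (SE 0.32), and −0.80 without WT-Con 5. *Alox5ap*, which presents arachidonic acid to 5-lipoxygenase, differed by −0.92, *Hpgds*, the haematopoietic prostaglandin D synthase, by −0.55, and *Hpgd*, which inactivates prostaglandins, by −0.49. *Ptgis*, the prostacyclin synthase, differed by −0.60 (−0.32 without WT-Con 5). Without that heart *Ptgis* was no longer under the threshold, and another gene of the list was, lower. *Ptgs2*, the inducible cyclooxygenase, looked up for its role, differed by −0.03 (−0.55 to 0.50). The median of the list was −0.16, and −0.05 without WT-Con 5.

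Macrophage markers stood lower beside these enzymes, some of which macrophages also express. Of 12 markers, none was higher and 4 were lower at an unadjusted p under 0.05 (background 3.17%), and 4 also without WT-Con 5 (background 2.08%), when *C1qb*, another C1q subunit, was no longer among them (−0.53, and −0.23 without that heart). *Cd68*, a lysosomal protein of macrophages, measured 4.41, 5.24, 4.36, 5.30 and 6.32 FPKM in Fat1-Con hearts, against 5.91, 8.78, 6.08, 8.27 and 8.65 FPKM in WT-Con hearts (−0.54, SE 0.15). *C1qc*, a subunit of complement C1q, measured 8.37, 7.05, 8.83, 8.88 and 11.4 FPKM in Fat1-Con hearts, against 10.03, 12.7, 10.3, 12.4 and 19.8 FPKM in WT-Con hearts (−0.52, SE 0.16). In both genes only the highest Fat1-Con heart reached into the WT-Con range. After ischemia-reperfusion *Cd68* differed by −0.48 and *C1qc* by −0.68, and *Csf1r*, the receptor of macrophage growth factor, by −0.27 in control and −0.58 in ischemia-reperfusion hearts. The median of the list was −0.26, −0.29 without WT-Con 5 and −0.17 with scaling free of mitochondrial fragments, and 11 of the 12 had a negative sign, where 9240 of the 18219 genes did. Summed FPKM of the list ran from 68.7 to 89.9 in Fat1-Con and from 79.0 to 186 in WT-Con, to 111 in WT-Con 1 to 4. In bulk tissue, fewer cells of a type and less RNA per cell cannot be told apart. The part of these cells in the values of the eicosanoid enzymes was not tested.

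Of 33 interferon-stimulated genes, 4 were higher and none was lower at an unadjusted p under 0.05 (background 2.46%), also without WT-Con 5 (background 1.71%). A positive sign was found in 27 of them, and in 8979 of the 18219 genes tested. *Stat2*, a transducer of type I interferon, differed by 0.31 (SE 0.12), *Gbp5*, a guanylate-binding protein, by 0.57, and *Ifit2*, which binds foreign RNA, by 0.66. *Ddx58*, the RNA sensor RIG-I, differed by 0.32 (0.21 without WT-Con 5). Without that heart *Ddx58* was no longer under the threshold, and another gene of the list was. *Gbp9*, a relative of *Gbp5* among the genes with the smallest p, measured 17.8, 19.4, 21.3, 16.02 and 17.99 FPKM in Fat1-Con hearts, against 12.04, 14.97, 10.03, 15.2 and 6.05 FPKM in WT-Con hearts. WT-Con 5 was the lowest of them, and the log2 difference of 0.73 was 0.51 without it. *Gbp9* overlaps *Gbp4* on the same strand (0.61), so the fragments of both cannot be told apart. The median of the list was 0.28, 0.36 without WT-Con 5 and 0.09 after ischemia-reperfusion, where *Gbp9* differed by 0.01. Summed FPKM of the list ran from 304 to 528 in Fat1-Con and from 190 to 611 in WT-Con, so the groups overlapped widely. WT-Con 5 held the highest sum and WT-Con 3 the lowest. Of 34 inflammatory cytokines and NF-κB targets, none was higher and 1 was lower, *Lcn2* (−0.87, and −0.63 without WT-Con 5, when it was not under the threshold).

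The nuclear genes of the respiratory chain moved with WT-Con 5. Of 73 such genes, 71 had a negative sign, where 9240 of the 18219 genes did. The median was −0.38, and without WT-Con 5 the median was −0.05. At an unadjusted p under 0.05, 2 were lower (background 3.17%), and 1 without WT-Con 5 (background 2.08%). The 13 protein genes of the mitochondrial genome had a median of 0.31, and 0.10 without WT-Con 5, and none was under the threshold. *Sdha*, the flavoprotein of complex II, was the gene of that list under the threshold both with and without WT-Con 5. It measured 181, 178, 335, 174 and 170 FPKM in Fat1-Con hearts, against 340, 345, 338, 345 and 306 FPKM in WT-Con hearts (−0.74, SE 0.22, and −0.77 without WT-Con 5). Fat1-Con 3 lay with the WT-Con hearts, and the other 4 Fat1-Con hearts lay between 170 and 181 FPKM. After ischemia-reperfusion *Sdha* measured 550, 333, 324, 319 and 176 FPKM in Fat1-IR hearts and 293, 279, 289, 343 and 269 FPKM in WT-IR hearts, so that 1 of those 5 *fat-1* hearts was as low.

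Of 26 sarcomere genes, none was higher and 2 were lower at an unadjusted p under 0.05 (background 3.17%), also without WT-Con 5 (background 2.08%). *Acta1*, the skeletal muscle actin that the stressed ventricle also makes, measured 54.2, 42.7, 80.7, 88.3 and 170 FPKM in Fat1-Con hearts, against 161, 147, 149, 128 and 471 FPKM in WT-Con hearts. Fat1-Con 5 lay within the WT-Con range and the other 4 Fat1-Con hearts below it, with a log2 difference of −1.25 (SE 0.37), and −0.91 without WT-Con 5. The 8 skeletal muscle markers, of which 5 were tested, summed to 44.1 to 172 FPKM in Fat1-Con and 130 to 475 FPKM in WT-Con. *Acta1* itself made up nearly all of that sum in each heart. *Des*, desmin, differed by −0.42, and by −0.23 without WT-Con 5. Of 37 ion channel and calcium handling genes, *Gja1*, connexin 43, was higher (0.27, and 0.21 and not under the threshold without WT-Con 5) and *Hcn2*, a pacemaker channel, was lower (−0.54). The backgrounds were 2.46% higher and 3.17% lower. Of 36 genes of apelin, PI3K-AKT-mTOR, PKC and p38 signalling, the pathway the study followed, none was under an unadjusted p of 0.05, nor was any of 31 apoptosis and necroptosis genes. The same held for 28 immediate-early genes and for 19 circadian clock genes, whose median of 0.23 was −0.02 without WT-Con 1.

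**Figure D5:**
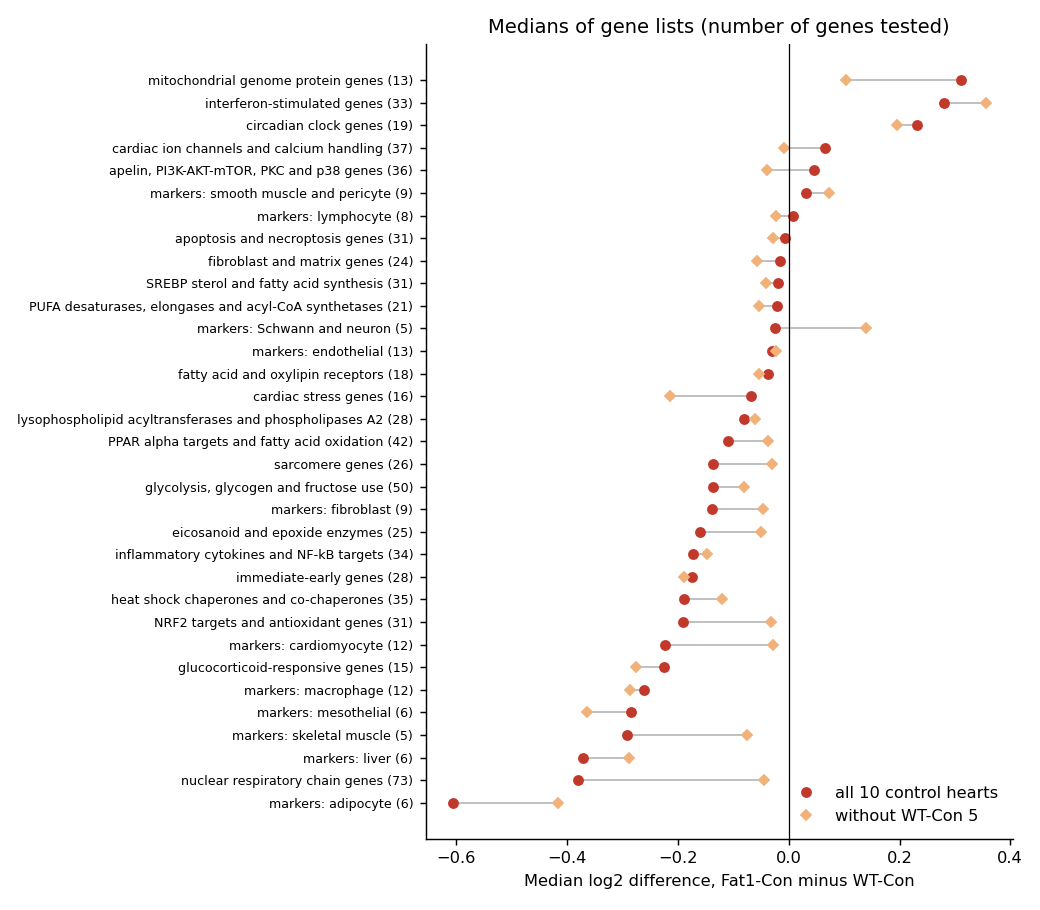
Median log2 fold change of Fat1-Con against WT-Con over the genes tested of each list, with all 10 hearts (circles) and without WT-Con 5 (diamonds), numbers of genes tested in brackets and a line at 0. The nuclear respiratory chain genes lie at −0.38 with WT-Con 5 and at −0.05 without it, whereas interferon-stimulated genes (0.28 and 0.36) and macrophage markers (−0.26 and −0.29) keep their side.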

How the data were processed

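RNA-seq of perfused mouse ventricles was analysed from 1 table of FPKM values per gene, deposited by the authors, with 1 column for each of the 20 hearts and 0 columns of other samples. The submitters' processing notes name HISAT2, featureCounts and mm10, with no role or version given in the sources used here. The FPKM values are normalized to depth and exon length and are not counts, so no count model was the main test. FPKM multiplied by the GENCODE M21 exon length and the depth came out as whole fragments, within 0.02, in every heart for 30746 of 31217 genes (98.5%), checked up to 1000 fragments, and limma voom on these fragments called 4 genes higher and 1 lower. Of the IDs, 657 were not in M21.

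Values were transformed to log2(FPKM + 0.1), kept at a mean of at least 0.1, and fitted in limma 3.58.1 (R 4.3.3) with a variance trend, the 4 groups in 1 model with 16 residual degrees of freedom and Benjamini-Hochberg adjustment over the 18219 genes. All p-values are two-sided. Single values were compared by exact permutation tests in scipy 1.17.1 (Python 3.11.15, numpy 2.4.6, pandas 2.3.3), figures were drawn in matplotlib 3.10.9, and pseudogenes were matched to coding transcripts with blastn 2.17.0. The scripts were tested on simulated data. Named were all genes called, the 12 higher and 12 lower genes of smallest p without overlap, at most 2 members of a list under an unadjusted p of 0.05, and *Mboat2*, *Pygl*, *Pqlc3*, *Aplnr*, *Nnt*, *Xist* and *Ddx3y*; other genes are marked where they appear or stand in the counts of their list, and some results are not reported here. The comparison, the genes and the lists were chosen with earlier results of these data known. Alternatives covered the pseudocount, the filter, the scaling, the samples fitted, weights, a covariate and each control heart left out.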

Additional observations from a re-analysis of the deposited data

Results flagged for a closer look

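Values of single hearts were compared with the other 4 of their group by Dixon's test over 130 groups of values, and 19 values of single hearts stood apart, 15 of them in WT-Con 5. Chance gives about 1 in 20 for independent groups picked without regard to their values. These groups include genes named for a small p in this contrast, and values from the same heart are not independent. That rate is therefore no measure of how unusual these counts are. The mitochondrial share of WT-Con 5 was 15.1% beside a median of 31.7% in the other 4. Its summed cardiomyocyte markers reached 39391 FPKM and its skeletal muscle markers 474.9 FPKM. In WT-Con 5 the FPKM was also far from the rest for *Cbr3* (1.17), *Ptgds* (271.8), *Acta1* (471), *Sdha* (305.8), *C1qc* (19.8), *Hspb3* (18.4), *Hcn2* (9.19), *Des* (825.7), *Atp5g1* (227.5), *Tecr* (148.2), *Cpt1b* (0.247) and *Eci1* (167.7). Of these, *Cpt1b* and *Sdha* were the lowest of their group in that heart and the others the highest. Lymphocyte markers summed to 0.915 FPKM in Fat1-Con 1 and to 1.61 FPKM in WT-Con 1, adipocyte markers to 42.95 FPKM in Fat1-Con 4, and *Sdha* measured 334.8 FPKM in Fat1-Con 3.

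*Nle1*, a factor of ribosome assembly, differed between the contrasts by 1.63 on the log2 scale (limma, interaction adjusted p = 0.00976), with −0.29 in Fat1-Con against WT-Con and 1.34 in Fat1-IR against WT-IR.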

How the results depend on the processing

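The 5 called genes kept their direction in each alternative model on single genes. Fitting the control groups alone gave 6 higher and 2 lower genes, and the same fit lacking WT-Con 5 gave 1 higher, with adjusted p of 0.112 for *Gm47399* and *Pqlc3* and 0.126 for *Mboat2* (limma). Array weights gave 8 higher. Leaving out 1 control heart at a time gave 4 to 5 higher and 1 to 2 lower genes, and 1 to 2 interactions. The interaction count was 0 in limma with scaling free of mitochondrial fragments (1414 at an unadjusted p under 0.05), with the replicate block (982), with the mitochondrial share as a covariate (873) and with WT-Con 5, Fat1-IR 1 and Fat1-IR 4 left out (1365). Scaling free of mitochondrial fragments turned the split at an unadjusted p under 0.05 to 837 higher and 407 lower, 67.3% higher in place of 43.7%, and moved the median of all genes to 0.08. The covariate gave 474 and 340. The mitochondrial share differed by 1.63 points without WT-Con 5 and by 7.48 points of summed FPKM (exact permutation p = 0.0556). Summed with their coding copies, an alternative chosen after seeing the data, *Gm7993* stood at −0.18 and *Gm47399* at −0.42, or at 0.03 without WT-Con 5. The sums hold both genes by construction, and the sum of *Gm47399* and *Rpl29* follows *Rpl29*. Otherwise the cause was not tested.

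Same-numbered hearts did not deviate together (correlations −0.051 to 0.058), so no pairing by number was seen. Shared litters or days were not tested. With the replicate block 4 genes were higher and 1 lower.

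Depth limits the low genes: *Gm47399* rests on at most 21 fragments per heart, and ranges of such counts cover counting error only. FPKM fixes no absolute amount of RNA, and 5 hearts per group limit what can be called.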

Other observations

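Gene groups not described so far also had few members under the threshold, under which 2.46% of all genes tested were higher and 3.17% lower. Of 35 heat shock chaperones and co-chaperones, 1 was lower at an unadjusted p under 0.05 in Fat1-Con hearts, *Hspb3*, a small heat shock protein of muscle (log2 difference −0.70, and −0.42 without WT-Con 5), with a median of −0.19 over the list, and 0.50 in ischemia-reperfusion hearts. Of 31 NRF2 targets and antioxidant genes, 1 was higher, *Gclm*, a subunit of the enzyme that starts glutathione synthesis (0.45), and 2 were lower, *Sod3* (−0.50) and *Gsta1*, a glutathione transferase (−1.02, and −0.61 without WT-Con 5). Of 24 fibroblast and matrix genes, 1 was lower, *Tgfb1* (−0.38, and −0.26 without WT-Con 5). Of 6 mesothelial markers, 1 was lower, *Upk1b* (−0.68), and the median of 6 adipocyte markers was −0.61, and −0.42 without WT-Con 5. *Il11*, a cytokine of the stressed heart, measured 0.0508, 0.188, 0.108, 0.0707 and 0.132 FPKM in Fat1-Con hearts, against 0.571, 0.404, 0.367, 0.369 and 0.215 FPKM in WT-Con hearts, without overlap (−1.21; limma, adjusted p = 0.524). After ischemia-reperfusion its log2 difference was 0.24.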
